A study of Homo sapiens with 6 samples.

Results

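The 36 genes described here encode enzymes that make purine, pyrimidine and deoxynucleotide building blocks, and SAMHD1, which breaks deoxynucleotides down. They were followed in MIA PaCa-2 cells, a human pancreatic cancer line. The members were the rows of the deposited gene table that carry these 36 gene names, of 35993 genes in all. Of them 34 matched by their symbol, and ADSS and ADSSL1 matched by an older name to the rows ADSS2 and ADSS1. They were split into 18 genes of de novo synthesis, 7 of salvage and 11 of deoxynucleotide (dNTP) supply, with SAMHD1 counted among the last. The study sequenced poly(A) RNA from 3 untreated libraries (Control) and 3 libraries from cells given 4 µM recombinant human cytoglobin (rhCYGB), a haem protein of the globin family, for 48 h. Both groups were the same line with no genetic change named, and the labels give one protocol, with the medium lowered to 1% FBS before rhCYGB, for both. A single line at a single dose and time limits the comparison to these cells. The labels do not say whether the 3 libraries of a group came from separate cultures, so p-values measure the spread between these libraries, which may be technical.

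Purine synthesis builds the ring stepwise on phosphoribosyl pyrophosphate (PRPP) up to inosine monophosphate (IMP), which is then turned into AMP or GMP. Pyrimidine synthesis builds the ring first and attaches it to PRPP, giving UMP and then CTP. Salvage enzymes rebuild nucleotides from free bases and nucleosides, and ribonucleotide reductase converts ribonucleotides to deoxynucleotides. Several of the last genes are known to be transcribed mainly in dividing cells, around S phase, and thymidylate synthase, ribonucleotide reductase and the pyrimidine enzymes are targets or activators of drugs used against pancreatic cancer.

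The 6 libraries held 34838399 to 42271299 gene counts, and the 36 members took 0.501% to 0.511% of them in Control and 0.365% to 0.372% after rhCYGB. The keratin genes KRT8, KRT18 and KRT19 and the mesenchymal gene VIM were abundant, while the epithelial marker EPCAM had 0 counts in every library. Markers of leukocytes (PTPRC), endothelium (PECAM1), acinar cells (PRSS1), beta cells (INS) and red cells (HBB) also had 0 counts, and COL1A1 had at most 10. ACTA2, a marker of myofibroblasts, had 180 to 243 counts, or 5.61 CPM in Control and 5.30 after rhCYGB, and was not called (adjusted p = 0.548). All 16 of 16 proliferation markers were lower by at least 2-fold after rhCYGB, against 14.7% of all genes tested. Their median log2 fold change was -1.56, with a range of -3.50 to -1.03. The study had already reported CDK1, E2F1, E2F2 and MCM2 to MCM7 of this list as lower in these libraries, so the count is no independent result. Among the 16 markers MKI67 went from a mean of 277 to 69.3 CPM (counts scaled to library size), PCNA from 169 to 31.7 and E2F1 from 41.8 to 15.1.

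The sequences below show stretches next to the start sites of RRM2, TYMS, PRPS2 and DUT, which fell at least 2-fold. A further stretch lies between PPAT and PAICS, which moved in opposite directions. SAMHD1, TK1 and DTYMK fell more than PRPS2 and DUT, held no E2F-like letters and are not printed. The printed stretches are RefSeq windows on GRCh38.p14, read 5′ to 3′ on the plus strand. Capitals mark a CCAAT box in RRM2 and an E2F-like motif in TYMS, PRPS2 and DUT. The DUT stretch lies before the start of the variant that encodes the nuclear enzyme, which matched by its spacing of 1102 bases from the first start in both the deposited table and RefSeq. The last stretch lies between the divergent genes PPAT and PAICS and holds no capitals because none of the searched E-box letters occur in it.
RRM2, chr2:10122619-10122729: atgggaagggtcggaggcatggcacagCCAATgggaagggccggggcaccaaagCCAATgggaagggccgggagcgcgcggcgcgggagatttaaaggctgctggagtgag
TYMS, chr18:657603-657632: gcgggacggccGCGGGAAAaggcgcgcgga
PRPS2, chrX:12791382-12791411: tacatctagccgccgcgcTTTCCCGCtccc
DUT, chr15:48332152-48332181: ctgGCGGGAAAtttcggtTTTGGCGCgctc
PPAT to PAICS, chr4:56435616-56435740: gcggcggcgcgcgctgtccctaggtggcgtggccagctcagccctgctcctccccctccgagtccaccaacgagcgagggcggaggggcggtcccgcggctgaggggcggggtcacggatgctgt

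The comparison of untreated with rhCYGB-treated cells asked how the transcripts of nucleotide synthesis differed once the protein had been present. Of the dNTP genes, SAMHD1, RRM2, TYMS and DTYMK were at 12.6% to 30.3% of their Control level after rhCYGB and DCTD was not called, the salvage kinase TK1 was at 14.3%, and the purine ring enzymes changed little and in both directions. All 36 members passed the filter on low counts and were tested. Of these, 23 fell, 10 rose and 3 were not called at an adjusted p under 0.05 (edgeR quasi-likelihood test, Benjamini-Hochberg over all genes). Among all 14728 genes tested, 38.6% were called lower and 39.0% higher, so the members fell more often and rose less often than genes at large, by count alone. At least 2-fold changes were seen in 9 members, all lower, against 14.7% of all genes lower and 12.4% higher by that rule. The median log2 fold change was -0.35 over the members and -0.00457 over all genes tested. In 22 members every rhCYGB library lay under every Control library and in 11 every one lay above, against 39.7% and 39.8% of all genes. With limma on log2(FPKM + 1), where FPKM is fragments scaled to transcript length and library size, 24 members were lower and 5 higher. In that fit 6545 of all 14728 genes were lower and 4578 higher.

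By arm, 10 of 11 dNTP genes fell and none rose, with 6 of them at least 2-fold lower and a median log2 fold change of -1.03. SAMHD1, which breaks dNTPs down and does not supply them, is among these 6 and has the lowest value of the arm, -2.99. Of the 18 de novo genes, 11 fell and 6 rose, with 2 at least 2-fold lower and a median of -0.38. Of the 7 salvage genes, 2 fell and 4 rose, with 1 at least 2-fold lower and a median of 0.25. Salvage therefore held a single large fall, that of TK1, among genes that moved by at most 0.52 on the log2 scale. When the deoxynucleoside kinases TK1, TK2 and DCK were counted with the dNTP genes, that arm's median became -0.68. The arms were not tested against each other, since genes of an arm are not replicates.

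**Figure D1:**
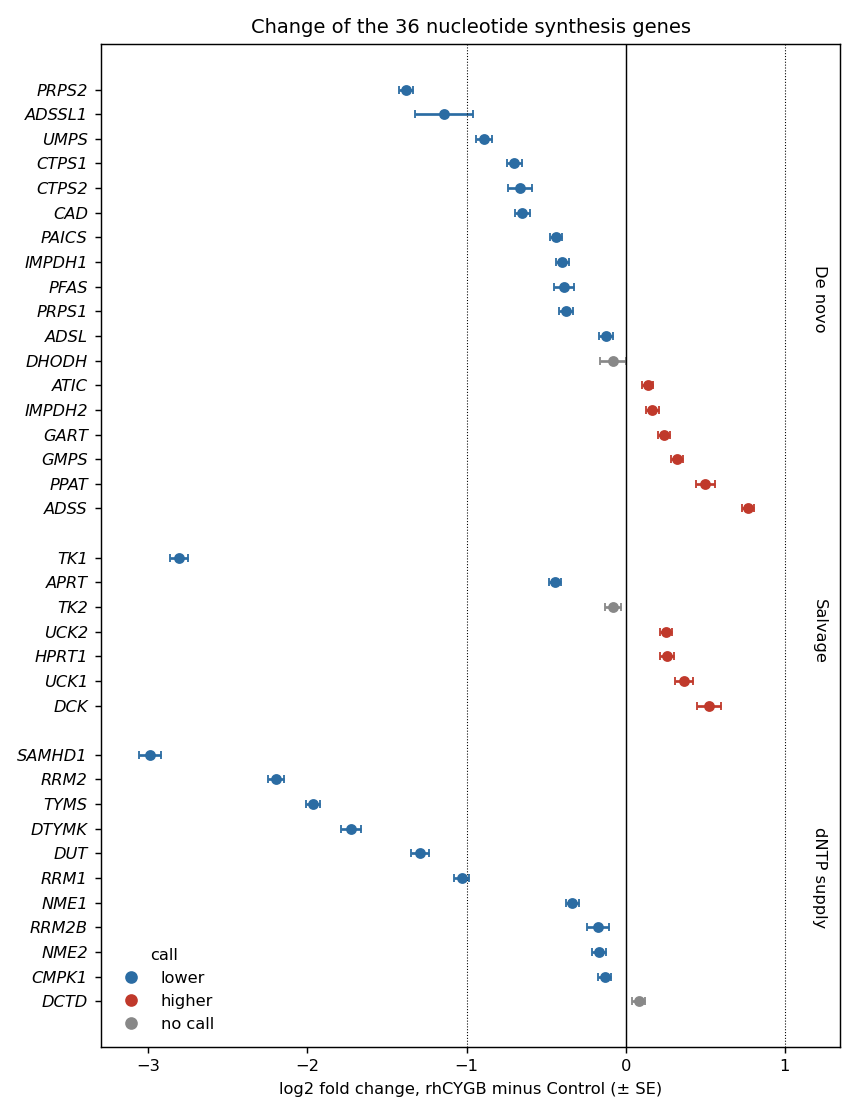
Log2 fold change of each member (rhCYGB minus Control, horizontal axis, points with SE bars from edgeR, 3 libraries a group) in the de novo, salvage and dNTP arms, coloured by call, with dotted lines at 2-fold. The 9 members past the left dotted line are 6 dNTP genes, TK1, PRPS2 and ADSSL1, and no member passes the right one.

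Ribonucleotide reductase, the enzyme that makes deoxynucleotides, consists of the large subunit RRM1 and either of the small subunits RRM2, which peaks in S phase, and RRM2B, which is induced by p53. RRM2 stood at 235, 233 and 258 CPM in Control and at 53.8, 53.7 and 50.8 CPM after rhCYGB. The 2 groups were far apart, and RRM2 fell 4.59-fold (log2 fold change -2.20, SE 0.0484, adjusted p = 7.09e-15). RRM1 went from 127, 125 and 132 CPM to 65.3, 58.7 and 63.7 CPM, again without overlap, a 2.04-fold fall (adjusted p = 1.58e-11). RRM2B stood at 26.3, 28.6 and 27.2 CPM in Control and 24.7, 21.8 and 26.3 CPM after rhCYGB. These libraries overlapped, and the fall of RRM2B (log2 fold change -0.17, adjusted p = 0.036) lost its call without Control 2, Control 3, rhCYGB 1 or rhCYGB 2, each left out in turn. The 3 subunits of the same enzyme thus differed in size of change, from 1.13-fold to 4.59-fold.

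Thymidylate is made from dUMP by TYMS and phosphorylated by DTYMK, and DUT supplies dUMP while keeping dUTP out of DNA. TYMS stood at 198, 201 and 212 CPM in Control and at 53.5, 51.2 and 51.8 CPM after rhCYGB, a fall of 3.90-fold (adjusted p = 5.25e-15). DTYMK went from 52.7, 50.1 and 50.6 CPM to 16.8, 14.4 and 15.2 CPM, 3.31-fold lower (adjusted p = 1.39e-12). DUT went from 61.1, 62.8 and 58.0 CPM to 26.6, 23.7 and 23.8 CPM, 2.45-fold lower (adjusted p = 1.41e-11). None of the 3 genes had overlapping groups. DCTD, the deaminase that feeds dUMP from dCMP, was the exception in this branch, at 63.6, 65.1 and 65.1 CPM in Control and 69.3, 67.5 and 68.3 CPM after rhCYGB. Its groups did not overlap, yet its log2 fold change of 0.08 was not called (adjusted p = 0.0819), and the sign turned under other scalings. TYMS lies over parts of ENOSF1 and TYMSOS, whose counts came to 26.7% and 2.61% of those of TYMS, and the strand setting of the counting is not given in the sources used here.

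SAMHD1, which breaks dNTPs down to nucleosides, had the lowest log2 fold change of the 36 in the edgeR test, but not with limma on log2(FPKM + 1), where it was -2.26 and TK1 was at -2.84. It stood at 38.8, 37.1 and 40.4 CPM in Control and 4.85, 4.96 and 4.83 CPM after rhCYGB. The treated libraries were tightly grouped, and SAMHD1 fell 7.95-fold (log2 fold change -2.99, SE 0.0701, adjusted p = 1.36e-14). Both of its variants with a call were lower at transcript level, with log2 fold changes of -3.19 and -2.89. The enzymes that make dNTPs and the enzyme that destroys them were therefore lower in the same libraries.

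The last step, phosphorylation of nucleoside monophosphates and diphosphates, moved little. NME2 and NME1, nucleoside diphosphate kinases, were the most abundant members per length, at 963 ± 23.1 and 198 ± 5.45 FPKM in Control (SD, n = 3). NME1 fell 1.26-fold (adjusted p = 2.63e-06), NME2 1.12-fold (adjusted p = 0.00247) and CMPK1, the UMP and CMP kinase, 1.10-fold (adjusted p = 0.00758). A read-through gene, NME1-NME2, overlaps both and held counts equal to 7.62% of those of NME1, so reads of these neighbours may have been split.

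**Figure D2:**
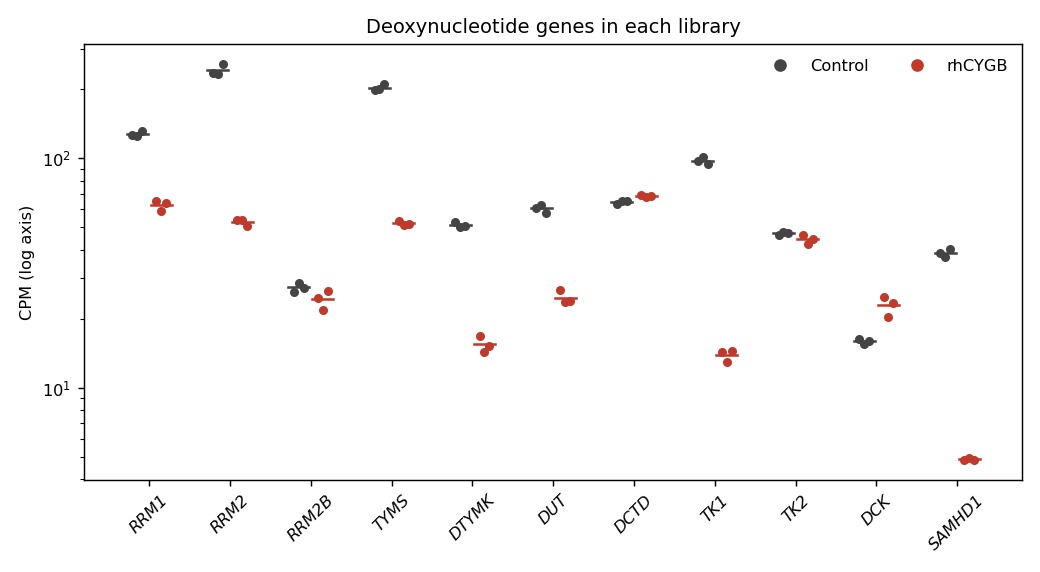
CPM on a log axis of the ribonucleotide reductase, thymidylate, deoxynucleoside kinase and dNTP hydrolysis genes in each of 3 Control (grey) and 3 rhCYGB (red) libraries, with group means as bars. RRM1, RRM2, TYMS, DTYMK, DUT, TK1 and SAMHD1 are separated widely, RRM2B and TK2 overlap, and DCK is higher after rhCYGB.

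The salvage gene TK1 and the dNTP genes SAMHD1, RRM2, TYMS, DTYMK, DUT and RRM1 fell at least 2-fold. So did the 16 proliferation markers given above, a list that holds genes already reported as lower in these libraries. The other dNTP genes called lower, RRM2B, NME1, NME2 and CMPK1, fell by only 1.10-fold to 1.26-fold. TYMS, RRM1 and RRM2 are themselves on a published list of S-phase genes. In bulk RNA, fewer cells in S phase and less RNA of these genes per cell cannot be told apart, and the part of the proliferation markers in these results was not tested. Among 14 regulators known for nucleotide genes, 13 were tested, 4 fell and 8 rose, against 38.6% of all genes lower and 39.0% higher. MYC, a known activator of nucleotide synthesis genes, rose from 367, 352 and 351 CPM to 1667, 1600 and 1695 CPM (log2 fold change 2.21, adjusted p = 3.64e-16), in the same libraries in which 23 members fell, CAD, UMPS and PRPS2 among them, and 10 rose, ADSS, PPAT and GMPS among them.

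Salvage of deoxynucleosides relies on the cytosolic thymidine kinase TK1, its mitochondrial counterpart TK2 and the deoxycytidine kinase DCK, which also activates gemcitabine. TK1 went from 97.0, 101 and 94.5 CPM to 14.3, 13 and 14.4 CPM, 7.0-fold lower (log2 fold change -2.81, adjusted p = 2.33e-15). TK2 stood at 46.1, 47.6 and 47.5 CPM in Control and 46.6, 42.5 and 44.5 CPM after rhCYGB, with overlapping groups and no call (adjusted p = 0.155). DCK was higher in each treated library, at 24.9, 20.3 and 23.4 CPM against 16.2, 15.5 and 16.0 CPM, a rise of 1.44-fold (adjusted p = 1.64e-05). The 3 kinases that act on deoxynucleosides therefore went down, stayed without a call, and went up.

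The other salvage enzymes changed less. The uridine-cytidine kinases UCK1 and UCK2 rose 1.29-fold and 1.19-fold (adjusted p = 4.31e-05 and 1.98e-05), from 25.0 to 32.3 and from 128 to 152 CPM. HPRT1, which salvages hypoxanthine and guanine, rose 1.20-fold (adjusted p = 6.18e-05), and APRT, which salvages adenine, fell 1.36-fold (adjusted p = 3.29e-08), from 146 to 108 CPM. The rises of HPRT1 and UCK2 lost their call when FPKM values were tested with limma.

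PRPP, the sugar donor of both pathways and of base salvage, is made by PRPS1 and PRPS2. PRPS2 stood at 186, 183 and 187 CPM in Control and 73.3, 66.6 and 73.1 CPM after rhCYGB. This fall of 2.61-fold (adjusted p = 2.60e-13) was the largest of the de novo arm and left no overlap between groups. PRPS1 fell 1.30-fold (adjusted p = 2.14e-06), from 77.8 to 60.1 CPM.

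Of the 6 enzymes that build the purine ring, PPAT, GART and ATIC rose and PFAS, PAICS and ADSL fell, so the step median was 0.0075. PPAT, which commits PRPP to the pathway, stood at 40.3, 40.9 and 42.0 CPM in Control and 61.3, 52.3 and 60.7 CPM after rhCYGB, a rise of 1.42-fold (adjusted p = 1.57e-06). PAICS, 2 enzyme activities in 1 protein, stood at 275, 279 and 288 CPM in Control and 215, 199 and 207 CPM after rhCYGB, a fall of 1.36-fold (adjusted p = 4.99e-08). Both pairs of groups were separate, in opposite directions. These 2 genes are transcribed away from each other from start sites with 136 bases between them in RefSeq and 133 in the deposited table. Both directions held under all 16 alternative settings tried. GART, the trifunctional enzyme, rose 1.18-fold (adjusted p = 1.84e-05) and ATIC, which makes IMP, 1.10-fold (adjusted p = 0.00283), while PFAS fell 1.31-fold (adjusted p = 4.31e-05) and ADSL 1.09-fold (adjusted p = 0.0232). GART lost its call with total counts and in both limma fits. The small changes of ATIC and ADSL changed sign under other scalings or units, ADSL lost its call without Control 2, Control 3, rhCYGB 2 or rhCYGB 3 in turn, and SGSM3 overlaps ADSL with counts equal to 28.8% of it.

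Beyond IMP, ADSS, which with ADSL makes AMP, had the largest rise of the 36. It stood at 93.3, 98.1 and 95.0 CPM in Control and 164, 159 and 165 CPM after rhCYGB, with wide separation and a rise of 1.70-fold (adjusted p = 4.96e-11). Its muscle-type counterpart ADSSL1 fell from 3.45 to 1.56 CPM (2.20-fold, adjusted p = 3.96e-05), at a level near the bottom of the member list. On the GMP side, GMPS rose 1.25-fold (adjusted p = 1.53e-06), IMPDH2 rose 1.12-fold (adjusted p = 0.00102) and IMPDH1 fell 1.32-fold (adjusted p = 2.93e-07). IMPDH2, the main IMP dehydrogenase of dividing cells, was at 167 FPKM in both groups, and its rise lost its call when libraries were scaled to total counts.

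Of the 5 pyrimidine synthesis genes, 4 were lower and none higher, against 38.6% of all genes lower and 39.0% higher. The median log2 fold change of the 5 was -0.66. UMPS, which makes UMP, stood at 77.6, 81.2 and 77.7 CPM in Control and 42.6, 45.2 and 40.2 CPM after rhCYGB, 1.85-fold lower (adjusted p = 2.53e-10). CAD, which carries the first 3 activities of the pathway, stood at 210, 216 and 224 CPM in Control and 131, 134 and 149 CPM after rhCYGB, 1.57-fold lower (adjusted p = 5.35e-09). Neither gene had overlapping groups, and 39.7% of all genes were also apart in that direction. The CTP synthases CTPS1 and CTPS2 fell 1.62-fold and 1.58-fold (adjusted p = 1.85e-09 and 1.40e-06). DHODH, the mitochondrial enzyme between CAD and UMPS, stood at 18.4, 20.7 and 19.4 CPM in Control and 18.8, 20.3 and 16.4 CPM after rhCYGB, with overlap and no call (adjusted p = 0.377).

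Several of these steps are shared between paralogs, and their balance was compared as a ratio of FPKM in each library. RRM2B to RRM2 stood at 0.0762, 0.0834 and 0.0713 in Control and 0.313, 0.276 and 0.354 after rhCYGB, a 4.07-fold higher ratio. TK2 to TK1 went from 0.136, 0.138 and 0.146 to 0.934, 0.961 and 0.882, so that the mitochondrial kinase came close to the cytosolic one per length. PRPS2 to PRPS1 went from 1.95, 1.98 and 1.91 to 1.04, 0.896 and 0.963. IMPDH1 to IMPDH2 and ADSSL1 to ADSS also moved down, by 0.57 and 1.93 on the log2 scale, and UCK1 to UCK2 and NME2 to NME1 moved up by 0.12 and 0.16. In these 7 pairs the groups did not overlap, which gave p = 0.1 (two-sided exact permutation test, the smallest p that 3 against 3 allows), or 0.114 adjusted over the 8 pairs compared. CTPS2 to CTPS1 was the eighth, with a log2 difference of 0.035, a pooled SD of 0.168 and an exact permutation p = 0.9. Because 0.1 is the smallest p possible, none of the 8 ratios could pass 0.05 alone.

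**Figure D3:**
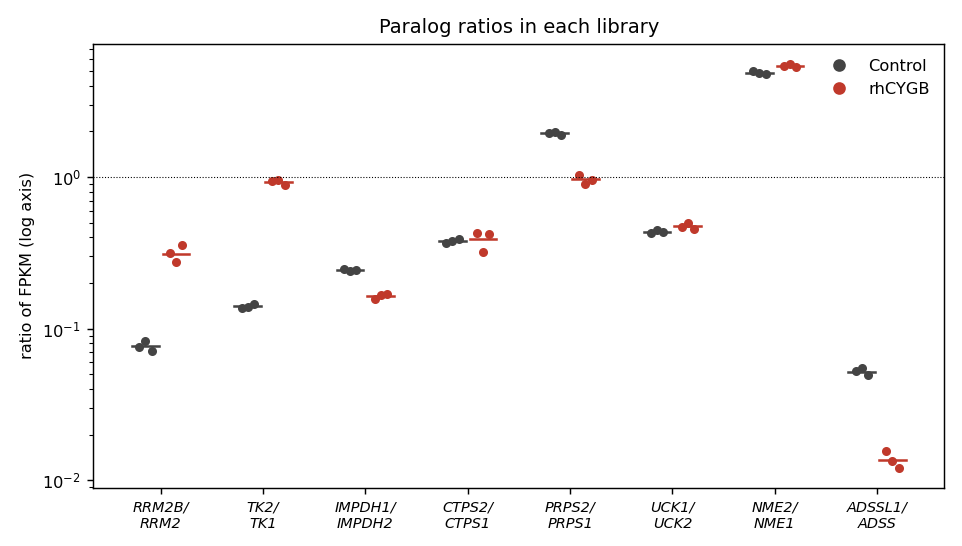
Ratio of FPKM between paralogs (log axis) in each of 3 Control (grey) and 3 rhCYGB (red) libraries, with geometric means as bars and a dotted line at equal levels. RRM2B/RRM2 and TK2/TK1 are higher after rhCYGB, PRPS2/PRPS1 and ADSSL1/ADSS are lower, and CTPS2/CTPS1 overlaps.

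At transcript level, 120 variants of the members were listed, 117 had counts and 103 were tested. Of these, 27 were lower, 8 higher and 68 not called, against 14.8% of 32577 tested transcripts lower and 15.1% higher. The count of transcripts higher was 3 with limma, 15 with DESeq2, 4 without Control 2, and 5 without Control 3. The deposited transcript counts divide a gene's reads among its variants and varied more between libraries than gene counts. In Control, 1 CMPK1 entry had 5966, 7573 and 78 counts, and another of the same length had 200, 102 and 7180. Reads can thus be assigned to different variants in libraries of the same group, which limits the DUT and CAD ratios below. DUT has a variant 2, which encodes the nuclear enzyme, and a variant 1, which encodes the mitochondrial one. The nuclear variant of DUT stood at 21.6, 20.2 and 24.8 CPM in Control and 5.92, 7.36 and 4.18 CPM after rhCYGB (log2 fold change -1.93, adjusted p = 0.00259). The mitochondrial variant of DUT went from 35.7, 39.8 and 30.6 CPM to 18.7, 15.2 and 16.2 CPM (log2 fold change -1.08, adjusted p = 0.0026). Both fell, and the FPKM ratio of nuclear to mitochondrial went from 0.70, 0.588 and 0.942 to 0.367, 0.561 and 0.298, without overlap (two-sided exact permutation p = 0.1, the smallest possible).

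CAD also had 2 variants that moved apart. The variant pairs of CAD and DUT were both chosen after their values were seen. Its variant 1, of 7286 bases, stood at 159, 151 and 145 CPM in Control and 18.6, 34.5 and 45.8 CPM after rhCYGB, a fall of 4.59-fold (adjusted p = 0.00534). Variant 2 of CAD, of 6925 bases, stood at 55.6, 72.3 and 86.8 CPM in Control and 108, 97.6 and 98.3 CPM after rhCYGB, without overlap and without a call (adjusted p = 0.0751). The FPKM ratio of variant 2 to variant 1 of CAD thus went from between 0.368 and 0.63 to between 2.26 and 6.11 (two-sided exact permutation p = 0.1, the smallest possible). The gene-level fall of CAD was 1.57-fold, well under that of variant 1.

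**Figure D4:**
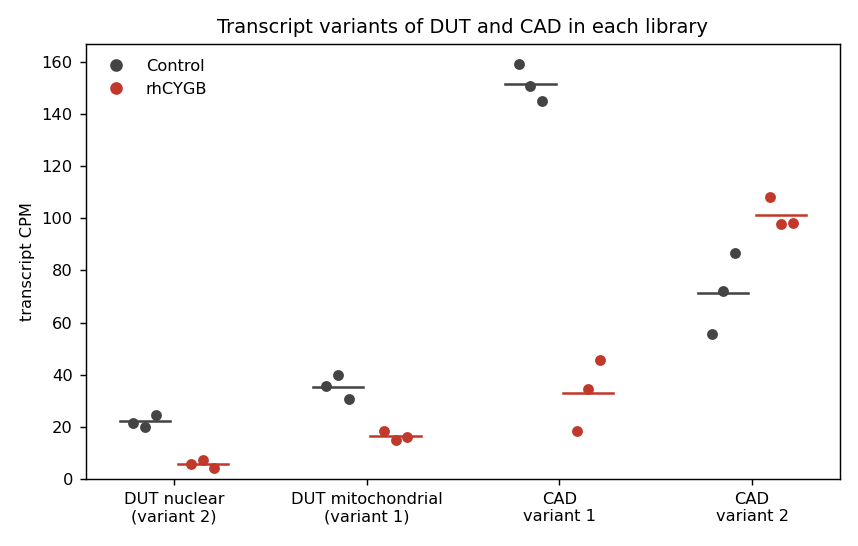
Transcript CPM of 2 DUT and 2 CAD variants in each of 3 Control (grey) and 3 rhCYGB (red) libraries, with group means as bars, on an axis from 0. Both DUT variants and CAD variant 1 are lower after rhCYGB, while CAD variant 2 lies at 97.6 to 108 CPM against 55.6 to 86.8 CPM.

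The 250 bases before and 50 after each RefSeq start were searched on both strands for 4 motifs, and 33 of the 36 members had such a window. The E2F-like letters TTTCGCGC, TTTGGCGC or TTTCCCGC occurred in 5 of 33 members, or 15.2%, against 3.30% of all 27305 genes with a window. They were in TYMS (39 bases before the start), PRPS2 (12 before) and DUT (42 and 27 before the nuclear start), as printed above, and these 3 genes fell at least 2-fold. The motif was also found in GART and DCK, which rose. Among members with a window it was in 3 of 21 called lower (14.3%) and 2 of 9 called higher (22.2%). RRM2 and TK1 held no such letters, but RRM2 had 3 CCAAT boxes at 123, 93 and 66 bases before its main start, of which the last 2 are printed, and TK1 had 2 before the start of its most abundant variant. The letters CCAAT occurred in 11 of 33 members (33.3%) against 39.7% of all genes. The palindromic E-box CACGTG was in 6 members (18.2%, against 8.77%), 2 of them called lower and 3 higher. PPAT and PAICS hold the same E-box, 182 bases before the start of PPAT and 40 after that of PAICS, just past the printed stretch. The element TGATGNAAN, bound by ATF4, was in 1 member, DCTD (3.03%, against 4.45%). The 30-base sites of TYMS, PRPS2 and DUT lie in or at the edge of UTRs annotated in GENCODE v29, whose type and strand were not separated. A match describes letters in these windows and not binding.

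Genes around the members were examined in 4 lists, whose counts stand against 38.6% of all genes called lower and 39.0% higher. Of 24 folate and one-carbon genes, which supply the carbon for purines and thymidylate, 23 were tested, 13 fell and 8 rose, with a median log2 fold change of -0.39. The folate hydrolase GGH fell 3.71-fold, from 24.4 to 6.57 CPM (adjusted p = 8.39e-12). Those with the largest rises, the mitochondrial enzymes MTHFD2, ALDH1L2 and MTHFD1L, rose 5.19-fold, 3.87-fold and 3.17-fold, MTHFD2 from 200 to 1036 CPM (adjusted p = 1.50e-15). ALDH1L2 rose from only 2.78 CPM. Other mitochondrial genes of the list, named after their values were seen, went both ways. SHMT2, AMT and SLC25A32 rose 2.25-fold, 1.69-fold and 1.29-fold. GLDC, GCSH, MTFMT, MTHFD2L and DLD fell 2.00-fold, 1.77-fold, 2.22-fold, 1.5-fold and 1.20-fold.

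Of 27 genes of nucleoside and base breakdown, 19 were tested, 8 fell and 8 rose, shares near those of all genes, with a median of -0.06. UPP1, uridine phosphorylase, rose 6.03-fold from 27.0 to 162 CPM (adjusted p = 1.98e-15), and the nucleotidases NT5C and NT5C3A rose 2.60-fold and 2.02-fold. NUDT1, which clears oxidised nucleotides, XDH, xanthine dehydrogenase, and DPYD, which degrades uracil and thymine, fell 2.68-fold, 2.56-fold and 2.44-fold. XDH stood at only 5.40 CPM in Control. Of 20 other nucleotide and nucleoside kinases, 9 fell and 4 rose, with a median of -0.21. Among these AK7, NME5 and NME4 fell 17.4-fold, 2.30-fold and 2.25-fold, AK7 and NME5 from only 3.15 and 3.38 CPM. UCKL1, NME6 and AK6 rose 1.88-fold, 1.32-fold and 1.27-fold. Of 10 nucleoside and nucleotide transporters, 7 were tested, 2 fell and 4 rose. The nucleoside carrier SLC29A2 and the mitochondrial pyrimidine carrier SLC25A33 both rose 3.07-fold and 3.08-fold, SLC25A36, also mitochondrial, rose 1.33-fold, and the nucleoside carrier SLC29A1 fell 1.41-fold.

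**Figure D5:**
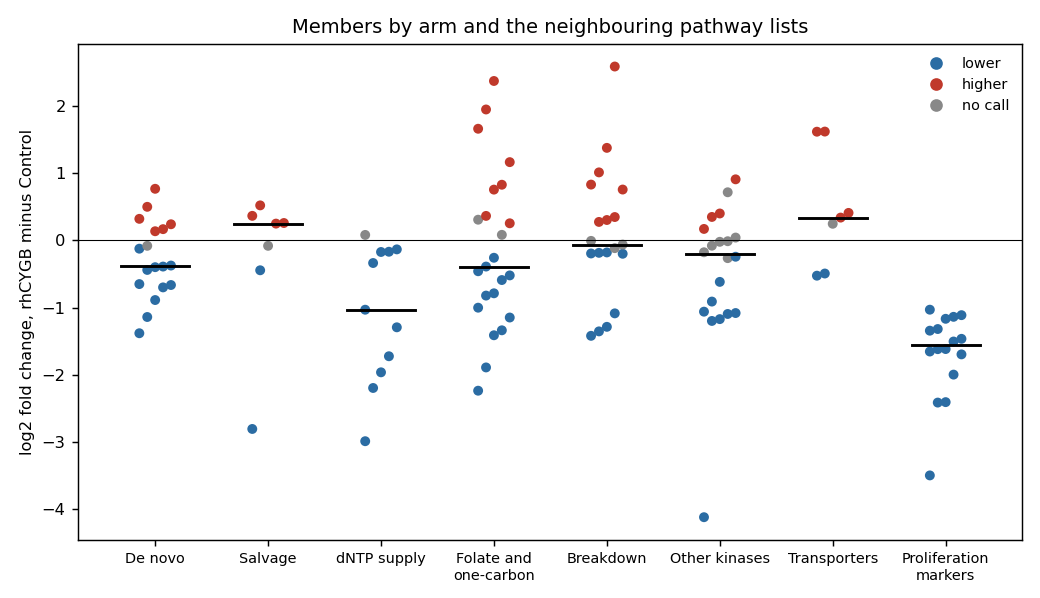
Log2 fold change (rhCYGB minus Control) of each tested gene in the 3 arms, in 4 neighbouring lists and among the proliferation markers, coloured by call, with a bar at each median. The dNTP arm has a median of -1.03 and the proliferation markers one of -1.56, while the folate and breakdown lists spread from below -1.4 to above 2.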

How the data were processed

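MIA PaCa-2 RNA was sequenced from TruSeq stranded poly(A) libraries on a NovaSeq instrument. Per the labels, the submitters' processing notes name FastQC 0.11.7, HISAT2 2.1.0 and StringTie 2.1.3b. They name the genome build mm10, although the genes are human, and the table names no build. The positions of 30 of 36 members in it do not overlap those of GRCh38, so its coordinates are not printed. The authors deposited whole-number read counts, FPKM (scaled to length and library size) and TPM per gene and transcript. Transcript lengths were deposited as well. TPM was not used. No column lacked a sample.

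Counts were tested with edgeR 4.0.16 (filterByExpr, TMM, glmQLFit, glmQLFTest) in R 4.3.3, 3 against 3 libraries. P-values were adjusted by Benjamini-Hochberg over all 14728 genes (32577 transcripts), and calls were made at 0.05. Of 35993 genes, 15205 had no counts and 6060 were removed as low, which kept 99.97% of the counts. CPM used effective library sizes. Libraries of a group varied by 5.48% (the square root of edgeR’s common dispersion). Replicates differed by more than sampling noise (chi-square over degrees of freedom 4.79 to 6.89). DESeq2 1.42.0 and limma 3.58.1 (pseudocounts 1 and 0.1) served as alternatives. S-phase genes came from Seurat 5.3.0. The code was tested on simulated data.

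All 36 members are named. Of the 4 neighbouring lists, the 3 largest rises and falls are named among called genes with at least 100 mean counts in the higher group, and MKI67, PCNA, E2F1 and MYC stand beside them. Some genes this rule selects are not reported here. Members and lists were chosen with earlier results of these data known. Deviations of same-numbered libraries correlated at -0.0479, 0.00715 and 0.00554, so numbers did not pair them. Promoter sequences are from RefSeq (GRCh38.p14).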

Additional observations from a re-analysis of the deposited data

How the results depend on the processing

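The count of members lower at an adjusted p under 0.05 was 21 to 25 and of those lower 2-fold 8 to 10 under every alternative, and no member was 2-fold higher under any. Members higher numbered 5 in both limma fits. The count over all genes moved too. Of 14728 genes, 5685 were lower in the main test, 6580 with upper quartiles and 6728 with total counts. With limma 6545 (pseudocount 1) and 6575 (pseudocount 0.1) were lower. A steady count of members is thus not a steady excess over genes at large. Scaling to upper quartiles, to total counts, or limma on log2(FPKM + 1) or log2(FPKM + 0.1) moved the median of all genes to -0.15, -0.17, -0.086 and -0.15. The de novo medians were then -0.52, -0.55, -0.51 and -0.54, the salvage medians 0.11, 0.086, 0.085 and 0.088, and the dNTP medians -1.17, -1.20, -1.15 and -1.20. In the same order ATIC was at -0.0044, -0.028, -0.027 and -0.027 and DCTD at -0.059, -0.083, -0.061 and -0.063, and ADSL was at 0.016 in both limma fits. Leaving out 1 library gave de novo medians of -0.40 to -0.32, salvage medians of 0.23 to 0.27 and dNTP medians of -1.05 to -0.99. DHODH was at 0.0021 without rhCYGB replicate 3. The log2 change of CTPS2 to CTPS1 ran from -0.038 (without rhCYGB replicate 1) and -0.025 (without rhCYGB replicate 3) to 0.17. With TK1, TK2 and DCK in the dNTP arm its median was -0.68. The cause of these shifts was not tested.

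With the replicate block 23 members were lower and 10 higher, as without it, and it changed no call of a member. Transcript alternatives were chosen after seeing the data. Member transcripts called higher numbered 5 with total counts, 15 with DESeq2, 3 with limma, 4 with the replicate block, and 4 to 7 with 1 library left out (4 without Control replicate 2, 5 without Control replicate 3). Over all genes, 3998 changed 2-fold in the main test and 1977 with limma on log2(FPKM + 1).

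Among single members, a call was lost or its sign turned in 6 of 16 alternatives for ADSL (4 lost, 2 turned), 5 for RRM2B, 4 each for IMPDH2 and ATIC (all 4 of ATIC turned), 3 for GART, and 2 each for HPRT1 and UCK2, while DHODH and TK2 gained a lower call in 4 each. SAMHD1 was at -2.26 on the log2 scale with limma on log2(FPKM + 1), against -2.99 in the main test, since a pseudocount of 1 shrinks changes near 1 FPKM. Depth was not varied.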
